A study of Mus musculus with 36 samples.

Results

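ZFP296, a zinc finger protein marking pluripotent cells, was found by ChIP-seq at 3102 peaks in mouse embryonic stem cells (ESCs), and 336 of them overlapped a SIN3A site but no MBD3 site. These 336 ZFP296/SIN3A peaks are described here. They were selected on the ZFP296, SIN3A and MBD3 peak lists themselves: a ZFP296 peak had to share at least 1 bp with a SIN3A site and none with an ESC MBD3 site. A SIN3A site was a SIN3A peak called with spike-in chromatin that overlapped a SIN3A peak called without it, and an MBD3 site was a replicate 1 peak that overlapped a replicate 2 peak. The values that chose the peaks are therefore given as a description only. Of the other ZFP296 peaks, 219 overlapped both a SIN3A and an MBD3 site, 404 an MBD3 site alone, and 2143 neither. The number of members rested on the SIN3A list with spike-in: with every peak of the SIN3A list without spike-in counted as a site, 804 ZFP296 peaks met the rule. Where a peak in either MBD3 list barred membership, 198 did.

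SIN3A is the scaffold of a histone deacetylase complex that is tethered to DNA by sequence-specific factors and is mostly found at the promoters of active genes. MBD3 and CHD4 belong to NuRD, a complex that joins nucleosome remodeling with histone deacetylation, in which CHD4 is the ATPase and MBD3 the subunit that sets NuRD apart from its MBD2-containing form. Both complexes carry the deacetylases HDAC1 and HDAC2. CHD4 can also be found on chromatin apart from MBD3. Peaks with SIN3A but without MBD3 address where ZFP296 was called together with the one complex and not, in both replicates, with the other.

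MBD3 (2 lists), CHD4 (2 lists) and SIN3A (2 lists, one prepared with spike-in) were precipitated from wild-type R1 ESCs grown in Serum/LIF +2i with antibodies to the endogenous proteins. ZFP296 (1 list) was precipitated with a GFP antibody from ESCs labelled ZFP296-BAC R1, in the same culture. MBD3 and CHD4 (1 list each) were also precipitated from WT R1 ESC-derived neural progenitors (NPCs) in NPC medium. No knockout line was used. The labels name a BAC line, the methods of the study a GFP-tagged construct put into KH2 ESCs, and the expression level of the tagged protein was not measured here. CHD4 replicate 2 is labelled wild type, but its peak names mention a Zfp219 BAC. The peak-calling threshold was 0.0001 for SIN3A without and 0.001 for SIN3A with spike-in. ZFP296 and both NPC factors had no replicate list. The lists held from 2304 to 29974 peaks. The depth in reads behind each list was not known, and a factor's missing peak may mean weak signal. Each peak carries the −log10 value of the authors' peak caller, a measure of confidence in the peak that is comparable only within a list.

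The sequences at the centres of ZFP296/SIN3A peaks show the range of DNA these peaks cover. The 120 bases at the peak centre are printed for 7 members near well-known ESC and growth genes, on the plus strand of mm9, with matches to the strings searched further on in capitals. Cdk4 (chr10:126500429-126500548) is a GC-rich promoter, Wee1 (chr7:117265086-117265205) a promoter with none of the strings, and Rplp0 (chr5:116009320-116009439) and Rpl32 (chr6:115758879-115758998) are promoters of ribosomal protein genes that differ in base composition. Prdm14 (chr1:13118179-13118298) and Utf1 (chr7:147131542-147131661) lie beside pluripotency genes, and Myc (chr15:61844317-61844436) lies downstream of the proto-oncogene.
Cdk4: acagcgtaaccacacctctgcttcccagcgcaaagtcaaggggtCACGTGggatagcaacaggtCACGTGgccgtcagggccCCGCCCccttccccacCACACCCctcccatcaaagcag
Wee1: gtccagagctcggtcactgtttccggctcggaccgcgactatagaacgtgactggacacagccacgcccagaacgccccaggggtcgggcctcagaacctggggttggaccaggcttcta
Rplp0: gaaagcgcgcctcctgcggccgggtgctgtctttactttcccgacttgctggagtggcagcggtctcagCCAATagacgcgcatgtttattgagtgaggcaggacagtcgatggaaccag
Rpl32: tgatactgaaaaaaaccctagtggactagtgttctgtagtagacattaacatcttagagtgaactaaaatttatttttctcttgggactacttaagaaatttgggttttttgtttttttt
Prdm14: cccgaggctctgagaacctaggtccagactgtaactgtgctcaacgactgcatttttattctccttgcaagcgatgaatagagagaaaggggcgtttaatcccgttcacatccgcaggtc
Utf1: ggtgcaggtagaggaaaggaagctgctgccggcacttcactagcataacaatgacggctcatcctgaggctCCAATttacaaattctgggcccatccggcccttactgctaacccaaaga
Myc: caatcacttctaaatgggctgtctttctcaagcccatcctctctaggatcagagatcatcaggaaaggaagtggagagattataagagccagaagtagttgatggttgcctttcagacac

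The Cdk4 window held 2 copies of the E-box CACGTG, a GC box and a KLF string, and its G+C content was 63.3%. The Rpl32 window held none of the strings, with a G+C content of 29.2% and no CpG dinucleotide. The Myc window also lacked CpG, whereas the Wee1 and Rplp0 windows held 9 CpG each.

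A second set of sequences is shown because 8 of the 335 ZFP296/SIN3A peaks on chromosomes (2.39%) overlapped an annotated gene of a small non-coding RNA, against 39 of 3087 ZFP296 peaks in all (1.26%). These were spliceosomal RNA genes U1, U4, U5 and U4atac, the RNase MRP RNA gene, the small nucleolar RNA gene Snord13 and 2 miRNA genes. The 2 miRNA overlaps are less certain, for reasons given further on. Central bases of 3 of these peaks follow, on the plus strand of mm9, with the bases inside the annotated small RNA gene in capitals: U4atac at chr1:120355645-120355764, RNase MRP at chr4:43505816-43505935 and Snord13 at chr8:32260348-32260467.
U4atac: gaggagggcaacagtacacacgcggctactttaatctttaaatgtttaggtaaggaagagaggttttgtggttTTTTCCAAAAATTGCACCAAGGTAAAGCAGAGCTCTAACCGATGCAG
RNase MRP: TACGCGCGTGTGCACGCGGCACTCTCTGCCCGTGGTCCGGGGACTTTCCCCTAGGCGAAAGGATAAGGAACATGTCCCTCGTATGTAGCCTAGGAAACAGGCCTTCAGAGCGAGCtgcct
Snord13: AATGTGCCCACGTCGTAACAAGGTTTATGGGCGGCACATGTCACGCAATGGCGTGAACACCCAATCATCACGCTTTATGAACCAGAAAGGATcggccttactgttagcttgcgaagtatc

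ZFP296/SIN3A peaks were promoter peaks more often than other ZFP296 peaks. Of 335 members on chromosomes, 205 (61.2%, 95% exact interval 55.7 to 66.4) had their midpoint in a TSS window, which reached from 1 kb before a protein-coding transcript start to 5 kb past it. The share was 17.4% (38 of 218) for ZFP296 peaks with SIN3A and MBD3 and 25.2% (537 of 2130) for ZFP296 peaks with neither, and 26.3% over all ZFP296 peaks. SIN3A sites without ZFP296 or MBD3 were still more often at starts, with 90.1% (7289 of 8087) in TSS windows against 61.2% (208 of 340) of the SIN3A sites that ZFP296/SIN3A peaks overlapped. Two-sided Fisher's exact tests, with Benjamini-Hochberg adjustment over 16 tests, gave odds ratios of 7.44 (95% interval 4.86 to 11.6, adjusted p = 6.8e-25) against peaks with SIN3A and MBD3, 4.67 (3.65 to 6.0, adjusted p = 9.6e-37) against peaks with neither, and 0.173 (0.136 to 0.219, adjusted p = 4.8e-42) for their SIN3A sites against SIN3A sites alone. Peaks were the units of these tests, so the p-values and intervals cover counting error within these lists and not variation between cultures. With a peak in either MBD3 list counted as an MBD3 site, the last of these odds ratios was 0.31. Members were chosen by overlap with SIN3A sites, of which 86.1% (7611 of 8836) lay in TSS windows. The test against peaks with neither was therefore not independent of the rule.

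**Figure D1:**
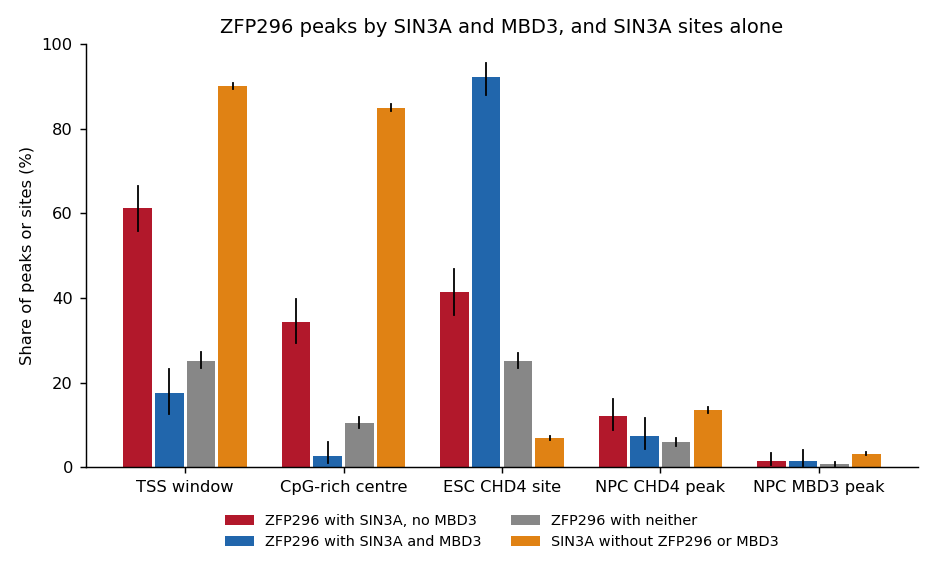
Share of peaks or sites (%) with each of 5 properties that the rule did not use directly. Not all are independent of it: CHD4 belongs to the same complex as MBD3, and most SIN3A sites lie in TSS windows and are CpG-rich. Bars are the 4 classes and lines are 95% exact intervals. ZFP296/SIN3A peaks (red) lie between the other ZFP296 peaks and SIN3A sites alone for TSS windows (61.2% against 17.4%, 25.2% and 90.1%) and CpG-rich centres.

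Within the TSS windows, ZFP296/SIN3A peaks gathered at the start itself. Of the 205, 177 lay within 1 kb of a start, and their median distance was -2 bp (quartiles -175 and 276 bp, negative values upstream). The 500 bp just upstream of the start held 44.9% of them and the 500 bp just downstream 29.3%. SIN3A sites without ZFP296 or MBD3 had a median of 69 bp, with 29.9% in the 500 bp upstream and 56.5% in the 500 bp downstream. In the same bins, ZFP296 peaks with SIN3A and MBD3 (38 in TSS windows) had 34.2% and 10.5%, and those with neither 23.6% and 24.6%. Distances of members are those of their ZFP296 peaks and not of the SIN3A sites they overlapped. These positions are given as a description with no test. Of the remaining members, 60 were intronic, 68 intergenic and 2 exonic, and 1 lay on mitochondrial DNA and was left out of positions and sequence counts. Starts on both strands lay within 1 kb of 23 members.

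**Figure D2:**
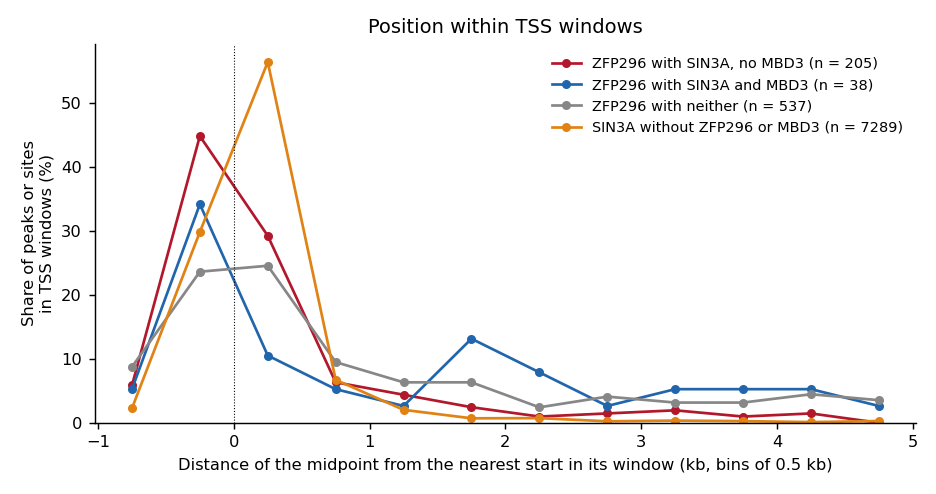
Share (%) of the peaks or sites in TSS windows by distance of their midpoint from the nearest start in its window (kb, negative upstream), in bins of 500 bp, for the 4 classes. ZFP296/SIN3A peaks (red) are highest just upstream of the start (44.9%) and SIN3A sites alone (orange) just downstream (56.5%). ZFP296 peaks with SIN3A and MBD3 (blue) are also highest just upstream (34.2%).

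TSS windows of 200 protein-coding genes held a member, which is 0.9% of 22225 genes, while 5903 genes had a SIN3A site there. Of 24 pluripotency factors, 4 had a member in the TSS window: Esrrb, an orphan nuclear receptor, Prdm14, a PR-domain repressor of differentiation genes, Utf1, a chromatin protein of ESCs, and Zfp296 itself. Any ZFP296 peak was found at 8 of the 24 and a SIN3A site at 17. Cell cycle genes had members at 2 of 33, the G1 kinase gene Cdk4 and Wee1, whose kinase holds back mitosis. Cytosolic ribosomal protein genes with a member included Rpl32 and Rplp0. Among chaperone genes it was Hspa5, which encodes the ER chaperone BiP (1 of 16), and in TGF-beta, Nodal and BMP signalling it was Id3, which encodes an inhibitor of bHLH factors (1 of 23). None of 20 SIN3 complex genes, 15 NuRD genes, 12 MYC and MAX network genes, 18 glycolysis genes, 15 PRC2 and DNA methylation genes or 67 replication-dependent histone genes had one. With 0.9% of all genes as background and lists this short, these counts are descriptions only. Outside TSS windows but within 100 kb of the nearest start, members lay near Myc, Ccnd3, Slc2a3 and Smad7. Foxp4 and Plxnb2 were the genes with 3 members, and all of these lay in their TSS windows.

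The values of single members show how unequally the factors were called. The strongest ZFP296/SIN3A peak at a start was that of 2310021P13Rik, with a ZFP296 value of 35.9, SIN3A values of 33.2 without and 9.56 with spike-in, a CHD4 peak in replicate 2 alone (7.66) and no ESC MBD3 peak. Ccl25, a chemokine gene, followed at starts with a ZFP296 value of 27.4, SIN3A values of 18.2 and 10.5, and CHD4 peaks in both lists (8.15 and 7.94). Both thus had ZFP296 values far above the members' median of 8.57. Rpl32, which encodes a protein of the large ribosomal subunit, had a ZFP296 value of 20.3 and SIN3A values of 25.2 and 26.9 at a peak 174 bp upstream of its start, and neither MBD3 nor CHD4 had a peak there in any list. Cdk4 had lower values, 7.07 for ZFP296 and 8.64 and 4.64 for SIN3A, likewise without any MBD3 or CHD4 peak. Hspa5 was of the same kind, with a ZFP296 value of 7.52 and SIN3A values of 8.28 and 17.2. So was Rplp0, with a ZFP296 value of 8.56.

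At the members described for Prdm14, Utf1, Esrrb and Zfp296, CHD4 was called in at least 1 list, and MBD3 in 1 list at Prdm14 and Esrrb and in none at Utf1 and Zfp296. At Prdm14 the ZFP296 value was 19.1, SIN3A values were 10.5 and 3.06, MBD3 had a peak in replicate 1 alone (9.79) and CHD4 had one in both lists (11.3 and 19.7). At Utf1 the ZFP296 value was 19.3 and CHD4 was called in replicate 2 alone (17.5), without MBD3. In an intron of Esrrb, 28942 bp from the nearest start, the ZFP296 value was 17.4, MBD3 was called in replicate 2 alone (10.4) and CHD4 in both lists (12.3 and 11.8). At its own gene, 66 bp past the start, ZFP296 had a value of 17.2, SIN3A values of 23.998 and 10.03, and a CHD4 peak in replicate 2 alone (18.97). Whether reads from the tagged ZFP296 transgene contribute to that peak was not tested. Myc, the proto-oncogene, had a member 25400 bp downstream of its nearest start with a ZFP296 value of 18.4 and CHD4 peaks of 6.66 and 11.7. Id3 had a ZFP296 value of 18.5, an MBD3 peak in replicate 1 alone and CHD4 peaks of 15.2 and 12.1.

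The highest ZFP296 value and the highest SIN3A value with spike-in belonged to different members, while the peak in an intron of Gphn was among the highest for both. The top ZFP296 value, 44.6, belonged to an intergenic peak 63244 bp from the start of Sfi1 that had SIN3A values of 14.8 without and 21.5 with spike-in and no MBD3 or CHD4 peak in ESCs or NPCs. The next outside TSS windows lay near Fam53a (30.9), Tbl1xr1 (24.3), Ryk (21.7) and in an intron of Gphn (21.5). The 5 highest SIN3A values with spike-in were all outside TSS windows: at an exon of Limd1 (146), introns of Txndc11 (142), Gphn (124) and Gm16532 (104), and near Myl12b (104). Without spike-in, the values of the same peaks were 7.77 at Limd1 and 9.16 at Txndc11, both below the members' median of 15.7, 27.4 at Gphn, 238 at Gm16532 and 35.2 near Myl12b. After Gm16532, the highest values without spike-in were near Igsf21 (202, intergenic) and at the start of Golga7b (104), with 71.4 and 38.8 with spike-in. The order of the SIN3A values thus differed between the 2 lists. All 5 lacked MBD3 and CHD4 peaks in ESCs and NPCs, and their ZFP296 values ran from 5.57 to 21.5. The Myl12b and Limd1 peaks, on different chromosomes, shared an exact run of 73 bases. The 36 bases at the centre had further exact copies in the genome for Txndc11 (5 copies in all), Gphn (4) and Myl12b (3), and for the Sfi1 peak with the top ZFP296 value (2), as for 7 of 336 members (2.08%). That share was 0.804% for SIN3A sites alone and 6.69% for ZFP296 peaks with neither. Shared runs and copies were examined after the data were seen, and their part in the high ZFP296 and SIN3A values was not tested. Whether the Limd1, Txndc11, Gphn and Myl12b peaks lie in copies of ribosomal RNA genes could not be checked here, so their values may not be those of single loci.

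**Figure D3:**
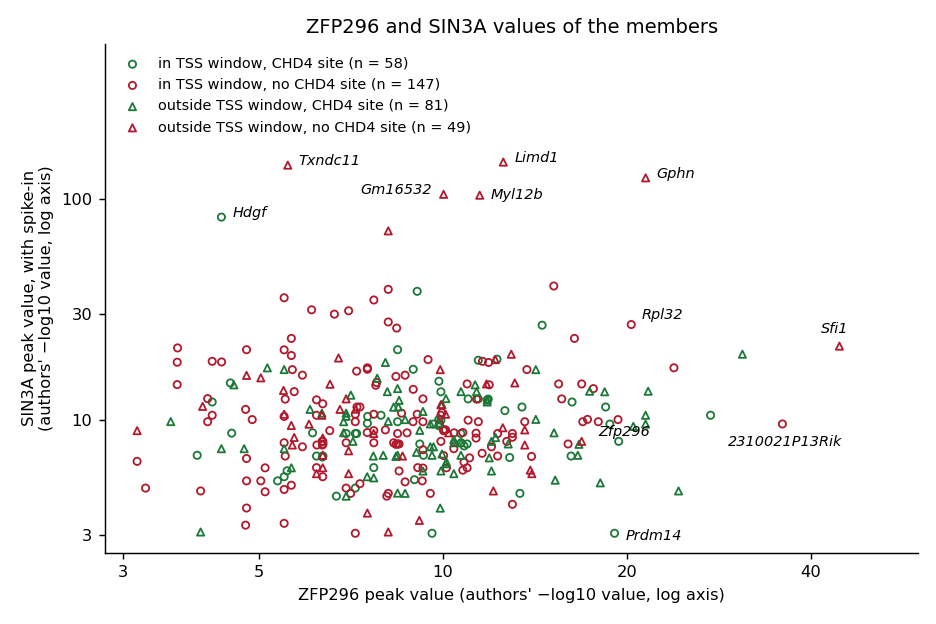
SIN3A value with spike-in against ZFP296 value for the 335 members on chromosomes, both as the authors' −log10 values on log axes. Circles lie in TSS windows, triangles outside, and colour shows the presence (green) or absence (red) of an ESC CHD4 site. The 5 highest SIN3A values, from 104 to 146, are triangles without CHD4.

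Over all members, ZFP296 values ran from 3.16 to 44.6 with a median of 8.57 (quartiles 6.36 and 11.4). The medians were 11.3 for ZFP296 peaks with SIN3A and MBD3 and 8.05 for those with neither. Members were 252 bp wide in the median, against 290 and 238 bp. The median SIN3A value with spike-in was 8.99 both for the SIN3A sites that members overlapped and for SIN3A sites alone. Members in TSS windows had a median ZFP296 value of 8.43 and those outside 9.16. The overlap with the SIN3A site covered 178 bp in the median, and midpoints were 76 bp apart. Just inside the rule, the peaks at Rreb1 and Mmp11 overlapped a SIN3A site by 1 and 3 bp. Just outside it, the peak at Nudt9 lay 5 bp from one. The overlap was below 50 bp for 19 members, and 47 of the peaks with neither had a SIN3A site within 200 bp. The nearest MBD3 site was 12 bp away for the member at Cldn4 but over 100 kb away for 218 members.

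ZFP296/SIN3A peaks overlapped CHD4 sites about as often as ZFP296 peaks in all. An ESC CHD4 site, a replicate 1 peak overlapping a replicate 2 peak, met 139 of 336 (41.4%, 95% exact interval 36.1 to 46.8), against 39.9% of all ZFP296 peaks. Of these 139 members, 98 had an MBD3 peak in 1 list and 41 in neither. CHD4 met 92.2% (202 of 219) of ZFP296 peaks with SIN3A and MBD3, 25.2% (540 of 2143) of those with neither and 6.91% (559 of 8092) of SIN3A sites alone. By two-sided Fisher's exact tests the odds ratios were 0.0597 (0.0325 to 0.104, adjusted p = 9.6e-37), 2.09 (1.64 to 2.67, adjusted p = 3.9e-09) and, for the members' SIN3A sites, 9.38 (7.38 to 11.9, adjusted p = 2.0e-64). The first was not independent of the rule, because MBD3 defined both of its classes and belongs to the same complex as CHD4. That odds ratio is therefore a description only. With every replicate 2 peak counted as a CHD4 site, the shares were 224 of 336 (66.7%, against 66.1% of all ZFP296 peaks) and 217 of 219. The first and last odds ratios were then 0.0185 and 4.78. With a peak in either MBD3 list counted as an MBD3 site the last was 5.26, and with midpoints within 500 bp in place of an overlap the first and last were 0.0391 and 6.21.

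CHD4 was less frequent at promoter than at distal members. A CHD4 site met 28.3% (58 of 205) of ZFP296/SIN3A peaks in TSS windows and 62.3% (81 of 130) of those outside, with an odds ratio of 0.24 (0.146 to 0.391, adjusted p = 1.9e-09, two-sided Fisher's exact test). It was 0.151 among members in the middle tertile of the ZFP296 value and 0.322 with a peak in either MBD3 list counted as an MBD3 site. The share was higher than in ZFP296 peaks with neither and in SIN3A sites alone on both sides of that division. By two-sided Fisher's exact tests added after the data were seen, with p adjusted over 8 tests, the share in TSS windows was 15.6% (84 of 537) for ZFP296 peaks with neither (odds ratio 2.13, 1.42 to 3.17, adjusted p = 0.00018). It was 5.27% for SIN3A sites alone, against 29.3% (61 of 208) of the members' SIN3A sites (odds ratio 7.46, 5.34 to 10.3, adjusted p = 2.5e-26, exact test). Outside, by the same exact tests, it was 28.6% (456 of 1593) for peaks with neither (odds ratio 4.12, 2.8 to 6.1, adjusted p = 5.3e-14). There it was 21.8% for SIN3A sites alone, against 59.8% (79 of 132) of the members' SIN3A sites (odds ratio 5.33, 3.57 to 8.03, adjusted p = 2.7e-17, exact test).

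**Figure D4:**
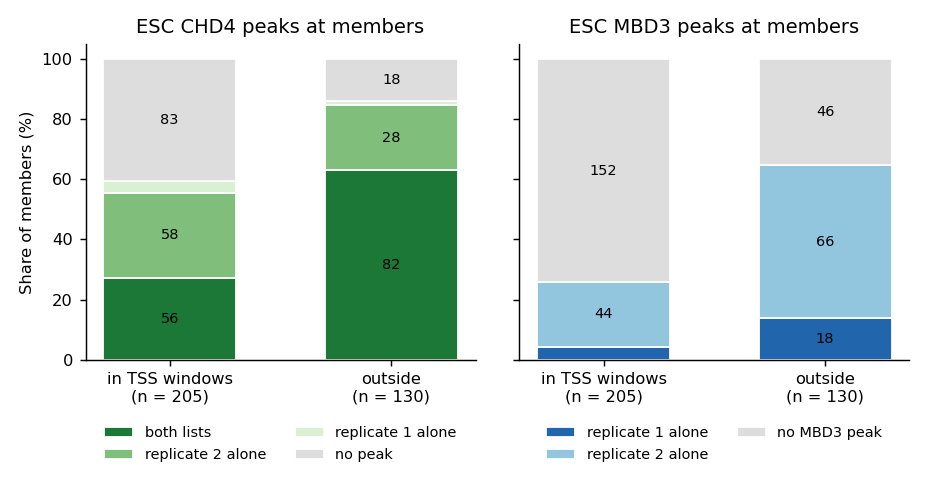
Share (%) of ZFP296/SIN3A peaks in TSS windows (n = 205) and outside (n = 130) by the ESC lists with an overlapping peak, CHD4 on the left and MBD3 on the right. Numbers in the bars are counts of members. Both CHD4 lists had a peak at 56 members in TSS windows and at 82 outside.

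No MBD3 site does not mean no MBD3 peak. An MBD3 peak was called in replicate 2 alone at 111 members and in replicate 1 alone at 27, and in neither list at 198 (58.9%). Neither list had a peak at 1286 of 2143 ZFP296 peaks without a SIN3A or MBD3 site and at 1484 of 3102 ZFP296 peaks in all (47.8%). In TSS windows 152 of 205 (74.1%) had none, against 46 of 130 (35.4%) outside. Because MBD3 chose the peaks, these counts carry no test. A CHD4 site met 24 of the 27 members with an MBD3 replicate 1 peak, 74 of 110 with a replicate 2 peak on chromosomes and 41 of 198 (20.7%) with none. CHD4 replicate 2, the longest list, had a peak at 86 members (25.6%) where replicate 1 had none, close to the 26.4% of all ZFP296 peaks. No MBD3 or CHD4 peak of any ESC list met 98 members (29.2%), against 26.4% of all ZFP296 peaks and 33.6% of those with neither. The 98 included 80 in TSS windows, among them Rpl32, Rplp0, Cdk4 and Hspa5.

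In neural progenitors a CHD4 peak met a minority of these positions, but a larger share than of ZFP296 peaks with neither. NPC CHD4 met 41 of 336 members (12.2%, 8.9 to 16.2), against 6.61% of all ZFP296 peaks and 5.88% (126 of 2143) of those with neither, with an odds ratio of 2.22 (1.49 to 3.26, adjusted p = 0.00013, Fisher's exact test). With every peak of MBD3 replicate 2 counted as an MBD3 site the odds ratio was 1.67 and its adjusted p 0.054, and in the middle tertile of the ZFP296 value the odds ratio was 3.55. By the same exact test, against ZFP296 peaks with SIN3A and MBD3 (7.31%) the odds ratio was 1.76 (0.937 to 3.46, adjusted p = 0.086). That comparison passed the exact test without MBD3 replicate 2 (odds ratio 2.0, adjusted p = 0.032), without the SIN3A list without spike-in (1.9, adjusted p = 0.028) and with midpoints within 500 bp (2.12, adjusted p = 0.0065). For the members' SIN3A sites (47 of 341, 13.8%) against SIN3A sites alone (13.6%) the odds ratio was 1.02 (0.728 to 1.4, adjusted p = 0.93, exact test), so that no difference from those sites was detectable. The highest NPC CHD4 value among members, 56.2, was 199 bp upstream of Rnf216, a ubiquitin ligase gene, where ESC CHD4 values were 27.0 and 40.1. The next were near Cxxc5 (15.5), at Nvl (15.4) and near Plekhg6 (15.3).

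NPC MBD3 peaks overlapped only 5 members (1.49%, 0.485 to 3.44), against 0.806% of all ZFP296 peaks. They lay at Dhrs13 (NPC MBD3 value 13.5), Ciz1 (12.9) and 2310021P13Rik (6.06), and near Cxxc5 (11.5) and Socs3 (9.92). The odds ratios were 1.09 (0.209 to 7.07) against ZFP296 peaks with SIN3A and MBD3, 2.14 (0.605 to 6.25) against those with neither and, for the members' SIN3A sites (7 of 341) against SIN3A sites alone (259 of 8092), 0.634 (0.25 to 1.34), and none passed the test (adjusted p = 1, 0.22 and 0.39, two-sided Fisher's exact tests). By the same exact tests, the last was 0.445 (adjusted p = 0.017) and passed when the SIN3A list with spike-in was left out, and that against peaks with neither was 2.85 (adjusted p = 0.021) and passed with midpoints within 500 bp. With 5 peaks, and 7 of the members' SIN3A sites, differences within the intervals above were not detectable.

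The DNA at the centres of ZFP296/SIN3A peaks was richer in CpG than at other ZFP296 peaks and poorer than at SIN3A sites alone. A CpG-rich centre, 200 bp with over 50% G+C and an observed to expected CpG ratio above 0.6, was found at 115 of 335 members (34.3%, 29.3 to 39.7), against 11.3% of all ZFP296 peaks. The shares were 2.75% (6 of 218) with SIN3A and MBD3 and 10.5% (224 of 2130) with neither. SIN3A sites of members had 41.5% (141 of 340) and SIN3A sites alone 85.0% (6873 of 8087). Fisher's exact tests gave odds ratios of 18.4 (7.96 to 52.3, adjusted p = 1.3e-21), 4.44 (3.38 to 5.84, adjusted p = 1.7e-25) and 0.125 (0.0993 to 0.158, adjusted p = 3.6e-70). The last was 0.19 when MBD3 replicate 1 was left out, 0.188 when the SIN3A list with spike-in was, and 0.243 with a peak in either MBD3 list as an MBD3 site. The first was 12.9 at its lowest under the alternative settings, 29.0 at a peak value of 5 or more and 43.6 over the central 500 bp. Of all SIN3A sites, 80.2% (7087 of 8836) had a CpG-rich centre. The test against peaks with neither was therefore not independent of the rule.

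The contrast with other ZFP296 peaks was smaller when positions were compared separately. In TSS windows 51.7% (106 of 205) of the members and 30.2% (162 of 537) of peaks with neither were CpG-rich (odds ratio 2.48, 1.76 to 3.49, adjusted p = 1.3e-07, Fisher's exact test). Outside, 6.92% (9 of 130) and 3.89% (62 of 1593) were, a difference that did not pass the exact test (odds ratio 1.84, 0.783 to 3.83, adjusted p = 0.11). Of all starts of protein-coding transcripts, 48.2% (22175 of 45961) were CpG-rich, close to the share of members in TSS windows. For the members' SIN3A sites against SIN3A sites alone the share was lower by exact tests both in TSS windows (60.6% of 208 against 89.4%, odds ratio 0.182, adjusted p = 1.2e-25) and outside (11.4% of 132 against 44.7%, odds ratio 0.159, adjusted p = 2.5e-14). Among members, a CHD4 site met 20 of 115 with a CpG-rich centre (17.4%) and 119 of 220 without (54.1%). The median G+C content was 59.5% for members in TSS windows and 52.5% outside.

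Short strings bound by known factors were counted on both strands of the central 200 bp and are given as descriptions. None of the 11 strings contains another. The GC box GGGCGG, a string of SP and KLF factors, was in 87 of 335 members (26.0%), 9.17% of ZFP296 peaks with SIN3A and MBD3, 10.3% of those with neither and 57.7% of SIN3A sites alone. It was in 38.6% of the 200 bp around all starts of protein-coding transcripts and in 1.96% of all 200 bp tiles of the genome. The ETS string CCGGAAG was in 8.66% of members, 1.83% of peaks with SIN3A and MBD3, 3.9% with neither and 11.2% of SIN3A sites alone. Its share was 8.59% at all starts and 0.567% of tiles. The E-box CACGTG, bound by MYC and related factors, was likewise in 8.66% of members, and in 3.21%, 4.08% and 7.27% of the other classes, with 5.2% at starts and 1.95% of tiles. These member shares are those of ZFP296 peaks. In the SIN3A sites that members overlapped, the GC box was in 29.1%, the ETS string in 11.8% and the E-box in 7.35%. The last 2 were close to the shares of SIN3A sites alone. Cdk4 held 4 E-boxes in its central 200 bp and Amdhd2 held 3.

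Strings of pluripotency factors are likewise given without a test. The octamer ATGCAAAT of POU5F1 was in 2.99% of ZFP296/SIN3A peaks and in 8.26% of peaks with SIN3A and MBD3, and the SOX2 string CCATTGT in 3.28% and 8.72%. In peaks with neither the octamer was in 4.08% and the SOX2 string in 6.57%, and in SIN3A sites alone in 0.507% and 1.43%. Their shares in tiles were 1.73% and 3.51%, and at starts 0.777% and 1.87%. Position differed between the classes. Among members, the octamer was in 1.95% (4 of 205) in TSS windows and 4.62% (6 of 130) outside. The SOX2 string was in 1.46% (3 of 205) and 6.15% (8 of 130). The KLF string GGGTGTG was in 8.06% of members and 17.0% of peaks with SIN3A and MBD3, 11.5% of those with neither and 6.03% of SIN3A sites alone (5.02% of starts, 3.22% of tiles). The octamer was found in the member at the Esrrb start and in that at Lats2, a Hippo pathway kinase gene. The YY1 string AAGATGG was in 11 members (3.28%, against 2.79% of all ZFP296 peaks, 5.32% of starts and 5.07% of tiles), among them Taf6, which encodes a TFIID subunit. None of the 139 members with a CHD4 site held it, which allows a share of up to 2.16% (3 counts of 139). The TTAGGG unit of telomeres was in 9.25% of members and 10.4% of all ZFP296 peaks (5.54% of starts, 7.57% of tiles). The AP-1 string TGANTCA was in 5.37% of members and 5.67% of all ZFP296 peaks (3.98% and 5.93%). CCAAT was in 15.5% and 19.6% of them (24.5% and 29.4%), and the NRF1 string GCATGCGC in 0.896% and 0.389% (2.29% and 0.217%).

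**Figure D5:**
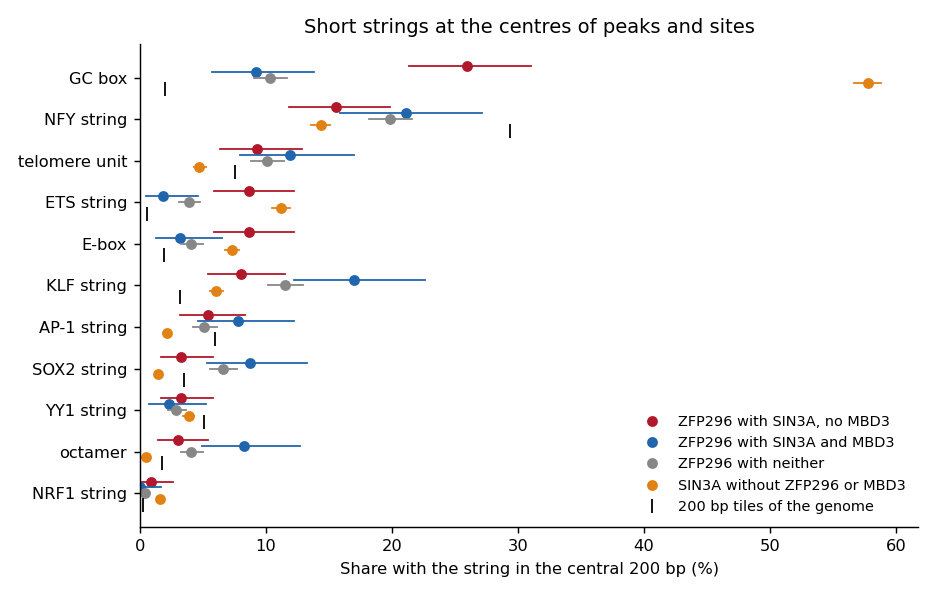
Share (%) of peaks or sites with each of 11 short strings in the central 200 bp, with 95% exact intervals, for the 4 classes in the colours red (ZFP296/SIN3A), blue (ZFP296 with SIN3A and MBD3), grey (ZFP296 with neither) and orange (SIN3A alone). Black ticks are all 200 bp tiles of the genome. The GC box separates the classes most, from 9.17% to 57.7%, with ZFP296/SIN3A peaks at 26.0%.

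Genes of small non-coding RNAs overlapped 8 of 335 members (2.39%), 30 of 2130 ZFP296 peaks with neither (1.41%), 22 of 8087 SIN3A sites alone (0.272%) and 0 of 218 ZFP296 peaks with SIN3A and MBD3, which allows a share of up to 1.38% (3 counts of 218). This property was examined after the data were seen and has no test. Spliceosomal RNAs remove introns, RNase MRP processes ribosomal RNA precursors and mitochondrial primers, and Snord13 assists 18S rRNA acetylation. ZFP296 values were 20.5 at the U4 gene, 18.8 at the miRNA gene Mir2139, 16.9 at U5, 15.6 at U4atac, 10.8 at Snord13, 8.31 at RNase MRP, 7.19 at U1 and 5.57 at the miRNA gene mmu-mir-689-2. The U4, Mir2139, U5 and U4atac values lay above the upper quartile of all members, 11.4. Among these 8, the member at mmu-mir-689-2, which is the Txndc11 peak, alone had a further exact copy of its 36 central bases in the genome. Whether that peak lies in a copy of ribosomal RNA genes could not be checked. The Mir2139 gene (chr4:139523441-139523535) lay at an end of its peak (chr4:139523428-139524092), outside the central bases. Shares without the miRNA genes were not computed for any class.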

How the data were processed

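Peak lists of 9 of 36 mouse ChIP-seq samples were used, and the other 27 samples were not analysed here. The authors mapped reads to mm9, kept uniquely mapped ones, removed duplicates and called peaks with MACS2 for each sample. Each deposited peak carries a −log10 value, whose origin from a p- or a q-value is not given in the sources used here. Groups follow the sample titles. Overlaps of at least 1 bp were computed in Python 3.11.15 with numpy 2.4.6, scipy 1.17.1, pyfaidx 0.9.0.4 and matplotlib 3.10.9 and tested on simulated intervals. Genes came from GENCODE vM1 and sequence from the mm9 reference. The intervals of shares are Clopper-Pearson intervals at 95% and cover only counting error, and for a share of 0 the limit given is 3 counts of the total. Classes were compared by two-sided Fisher's exact tests, adjusted by Benjamini-Hochberg over 16 tests, and over 8 tests added later. In every Fisher's exact test against SIN3A sites alone, the SIN3A sites that members overlapped stood for the members. Elsewhere, and in the figures, members stand as ZFP296 peaks unless their SIN3A sites are named.

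The members, gene lists and strings were chosen with earlier results of these data known. Named members were the 10 with the highest ZFP296 value, the 5 with the highest SIN3A value with spike-in, the 5 highest outside TSS windows, the 5 with an NPC MBD3 peak, and up to 4 per gene list. Members at small RNA genes, with extreme NPC CHD4 values, near the limits of the rule, or holding given strings, and genes with 3 members, were named after their values were seen. A gene was assigned by its TSS window, otherwise by the nearest start. Some results of the ribosomal protein gene list are not reported here.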

Additional observations from a re-analysis of the deposited data

How the results depend on the processing

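Of 16 tests, 11 passed the threshold (adjusted p under 0.05), and 132 of 146 test values recomputed under alternative settings kept their direction and their side of it, while 5 of 7 recomputed numbers of members stayed within 1.5 times 336. The 11 include every comparison of TSS windows, ESC CHD4 sites and CpG-rich centres. Among them, that of ESC CHD4 sites against peaks with SIN3A and MBD3 is a description only. Those of TSS windows and CpG-rich centres against peaks with neither are not independent of the SIN3A part of the rule. Leaving out single lists moved the number of members from 336 to between 226 and 804, the odds ratio for NPC CHD4 peaks to between 1.64 and 2.38 against peaks with neither, to between 1.07 and 2.0 against peaks with SIN3A and MBD3, and to between 0.788 and 1.11 against SIN3A sites alone, and that for NPC MBD3 peaks to between 0.481 and 1.4 against peaks with SIN3A and MBD3 and to between 0.445 and 0.787 against SIN3A sites alone. Without MBD3 replicate 2 or the SIN3A list without spike-in, NPC CHD4 passed against peaks with SIN3A and MBD3 (2.0 and 1.9, adjusted p = 0.032 and 0.028 by exact tests). Without MBD3 replicate 1 it no longer passed against peaks with neither (adjusted p = 0.054), and without the SIN3A list with spike-in NPC MBD3 passed against SIN3A sites alone (0.445, adjusted p = 0.017), both by exact tests. With a peak in either MBD3 list as an MBD3 site there were 198 members, and the odds ratio for NPC MBD3 peaks against peaks with SIN3A and MBD3 was 0.597. It was 0.459 in the middle tertile of the ZFP296 value, an alternative added later. With midpoints within 500 bp in place of an overlap, NPC CHD4 passed the test against peaks with SIN3A and MBD3 (2.12), NPC MBD3 passed it against peaks with neither (2.85), and NPC CHD4 against SIN3A sites alone was 0.967. At a peak value of 5 or more the last was 0.935. Outside TSS windows the CpG-rich odds ratio against peaks with neither was 1.84 and no longer passed. The cause of these changes was not tested. No paired analysis was possible because overlaps of peak lists allow no fit with a replicate block. Depth in reads was unknown, ZFP296 had 1 list, and peak positions, not read counts, limit every comparison.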
